A study of Mus musculus with 15 samples.

Results

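The genes described here are 35 genes of the unfolded protein response and of ER-associated degradation (ERAD), measured in isolated left ventricular cardiomyocytes of mice given iron ions or a sham exposure. They were taken as a named list, and each was read from 1 probe set of an expression array, the one with the highest mean signal among those annotated with that symbol alone. All 35 were on the array, among 19937 such genes, and 34 lay in the upper 50% by mean signal and were tested with the 9969 genes there. Trib3 fell below that level and is given by its values only. The list held 15 chaperones and folding enzymes of the ER, 4 stress sensors and their factors, 6 genes of the arm that runs from the kinase PERK to the transcription factor ATF4, 9 ERAD genes and 1 translocon subunit.

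All donors of the cells were C57Bl/6NT males, 8 to 9 months old. In the iron group the whole body received 0.15 Gy of iron ions at 1 GeV per nucleon (151 keV per µm of linear energy transfer), and cells were taken on day 1 (3 arrays), day 3 (3 arrays), day 7 (2 arrays), day 14 (2 arrays) and day 28 (2 arrays). The sham group, with no dose, gave 2 arrays on day 1 and 1 on day 3, and these 3 arrays served as the control of every day. Time and exposure were therefore not separated for days 7, 14 and 28. Per the labels, digestion with collagenase and a calcium gradient left mostly calcium-tolerant cardiomyocytes, with some inflammatory or endothelial cells possibly among them. Whether each array stands for a mouse of its own is not stated, so p-values measure the spread between arrays, which may be technical.

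Proteins made for the cell surface, for secretion and for the sarcoplasmic reticulum fold in the endoplasmic reticulum (ER), where chaperones hold unfolded chains and disulfide isomerases join their cysteines. When unfolded chains build up, the sensors IRE1 (gene Ern1), ATF6 and PERK (gene Eif2ak3) act: IRE1 splices the Xbp1 transcript, ATF6 is cut into a transcription factor, and PERK slows translation while ATF4 protein accumulates. XBP1 and ATF6 raise chaperone and ERAD genes, ATF4 raises genes such as Ddit3 (CHOP), and ERAD draws terminally misfolded chains out of the ER for destruction by the proteasome. In heart muscle the pathway is known from ischaemia and pressure overload. The array reads total transcript levels, not the splicing of Xbp1, the cleavage of ATF6 or the translation of Atf4.

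Some facts of all the arrays touch what follows. The 15 listed cardiomyocyte markers were all on the array, at percentiles of mean signal between 75.35 and 99.99. The pair of day 28 arrays differed less from each other (SD of the differences over genes 0.137 log2 units, r = 0.995) than any other pair of a group (0.206 to 0.351), so results of day 28 are also given with the pair averaged and counted as 1 array. Markers of other cells varied between arrays, as the plot of marker lists by array shows. The mean centred log2 signal of 10 T cell and thymocyte genes was 2.63 to 2.78 on day 28 and 1.53 in the day 3 sham array, against -1.11 and -0.80 in the day 1 sham arrays. The mean of 14 fibroblast genes ran from -0.83 to -0.57 on iron day 3 and from 0.17 to 0.24 on day 28, against 0.64 to 0.71 in sham arrays. For 15 macrophage and monocyte genes it ran from -0.81 to -0.58 on day 3 and from 0.75 to 1.24 on day 7, against 0.26 to 0.54 in sham arrays. Airway and alveolar epithelial genes (16) were highest in the day 3 sham array, at 1.77, against -0.09 and -0.89 in the day 1 sham arrays. In such a preparation, fewer cells of a type and less RNA per cell cannot be told apart.

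**Figure D1:**
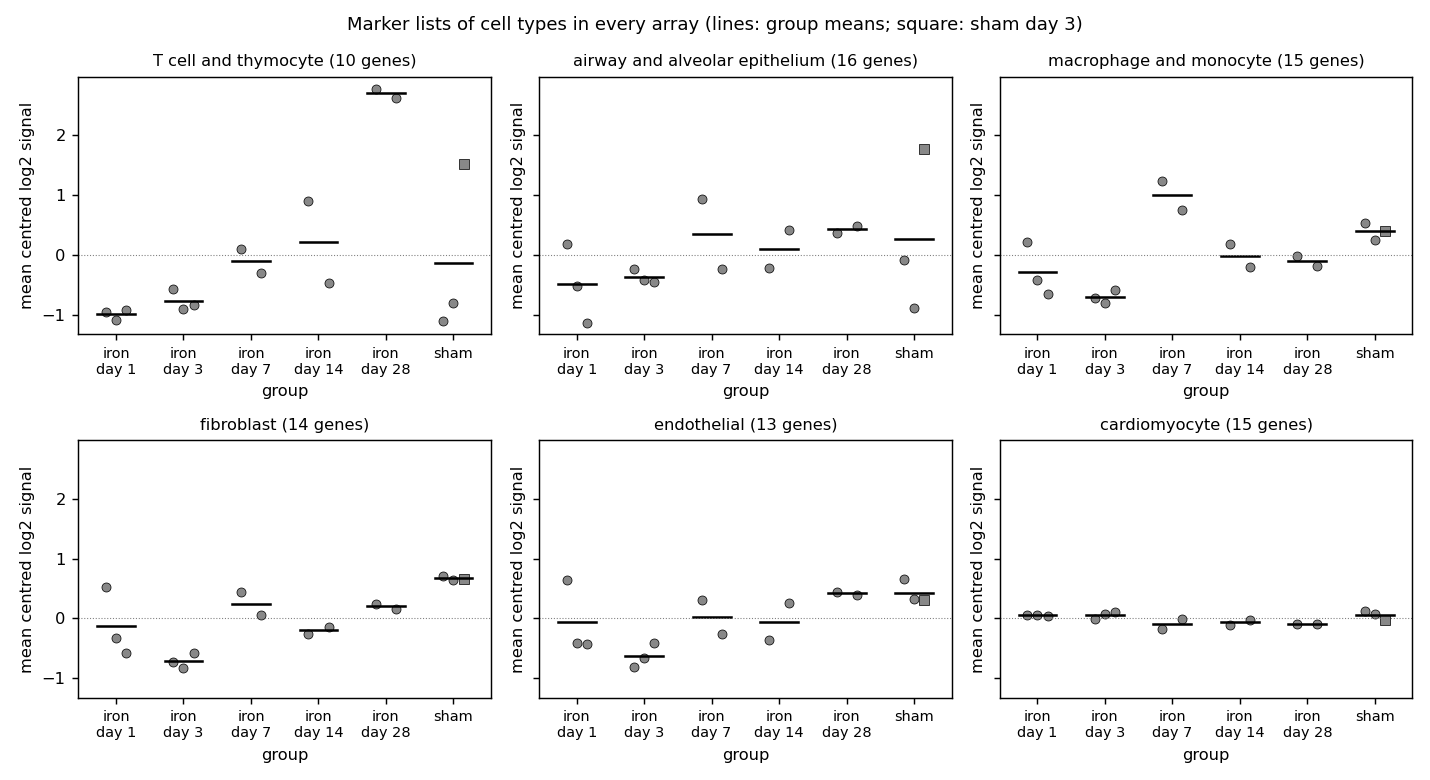
Mean centred log2 signal of 6 lists of cell type markers (y axis, log2 units, each gene centred on its mean over 15 arrays) in every array, with the iron days on the left and sham on the right. Points are arrays, lines are group means and the square is the day 3 sham array. The T cell list lies between 2.63 and 2.78 on day 28 and at 1.53 in the square, and the cardiomyocyte list stays between -0.17 and 0.12.

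The promoter windows of the list are shown first, because they hold the letters by which these branches are classically recognised. RefSeq windows (build GRCm38.p6) of 250 bases before and 50 after the gene's start were at hand for 31 of the 35 genes. They were searched on both strands for the ER stress response element (ERSE), written as CCAAT and CCACG with 9 bases between them, for its second form (ERSE-II), ATTGG and CCACG with 1 base between them, for the unfolded protein response element core TGACGTGG and for the C/EBP-ATF element TGATGNAA. The matches found in the list did not overlap one another. ERSE was in the windows of 7 of 13 chaperone genes and 2 of 8 ERAD genes, against 0.119% of 32851 windows in all. ERSE-II was in the windows of Herpud1 and Dnajb11, against 0.0365% of all windows. The C/EBP-ATF element was in those of Chac1, Asns and Trib3, 3 of 6 genes of the PERK-ATF4 arm, and in that of Herpud1, against 3.97% of all windows. TGACGTGG was in none of the list's windows and in 0.676% of all. These are descriptions of letters, not of bound sites. The stretches below show the classical case of Hspa5, the ERSE genes whose signal was higher on the later iron days or varied among the iron days, the ERAD gene with both other elements, and the genes of the ATF4 arm that carry its element before the start. Each is printed 5′ to 3′ along the gene, with the matched letters in capitals. A match on the opposite strand appears as its reverse complement.
Hspa5 (chr2:34772010-34772058, plus strand): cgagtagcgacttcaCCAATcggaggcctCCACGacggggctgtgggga
Hsp90b1 (chr10:86705518-86705671, minus strand): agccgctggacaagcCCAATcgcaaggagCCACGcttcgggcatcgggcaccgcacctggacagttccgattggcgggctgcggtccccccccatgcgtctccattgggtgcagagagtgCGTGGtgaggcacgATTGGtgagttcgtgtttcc
Pdia6 (chr12:17266476-17266524, plus strand): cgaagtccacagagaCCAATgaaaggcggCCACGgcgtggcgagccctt
Creld2 (chr15:88819505-88819553, plus strand): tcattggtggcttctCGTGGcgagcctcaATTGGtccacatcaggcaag
Syvn1 (chr19:6046517-6046565, plus strand): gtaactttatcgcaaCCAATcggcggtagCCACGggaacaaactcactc
Herpud1 (chr8:94386302-94386402, plus strand): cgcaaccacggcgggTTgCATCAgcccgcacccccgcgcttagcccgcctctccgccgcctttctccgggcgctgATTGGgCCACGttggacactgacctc
Chac1 (chr2:119351034-119351071, plus strand): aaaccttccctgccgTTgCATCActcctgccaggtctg
Asns (chr6:7693210-7693247, minus strand): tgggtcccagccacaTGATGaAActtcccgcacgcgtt
Hsp90b1 carries ERSE at 2 places, one on each strand. The chaperone gene with the largest late difference, Sdf2l1, held no match to any of the 4 in its window, and its 250 bases before the start are given in full for comparison.
Sdf2l1 (chr16:17132384-17132633, minus strand): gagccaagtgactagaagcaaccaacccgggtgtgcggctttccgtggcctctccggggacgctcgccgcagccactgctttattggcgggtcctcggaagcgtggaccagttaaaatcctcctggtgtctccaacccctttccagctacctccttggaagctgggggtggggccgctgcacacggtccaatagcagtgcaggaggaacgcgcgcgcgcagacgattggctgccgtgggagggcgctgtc

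Values below are deposited log2 signals, and differences are log2 differences with the standard error (SE) of a linear model fitted with limma to all 9969 genes. Adjusted p is Benjamini-Hochberg adjusted over those genes, and a gene is said to have risen or fallen where it is under 0.05. The plot of the members by array shows the pattern that the comparisons measure. Most chaperone signals are low on iron days 1 and 3 and high on day 28, with Sdf2l1 also high on day 7, while in the PERK-ATF4 arm Ddit3 is highest on day 3 and Chac1 is low in sham. The day 3 sham array carries high chaperone signals as well.

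**Figure D2:**
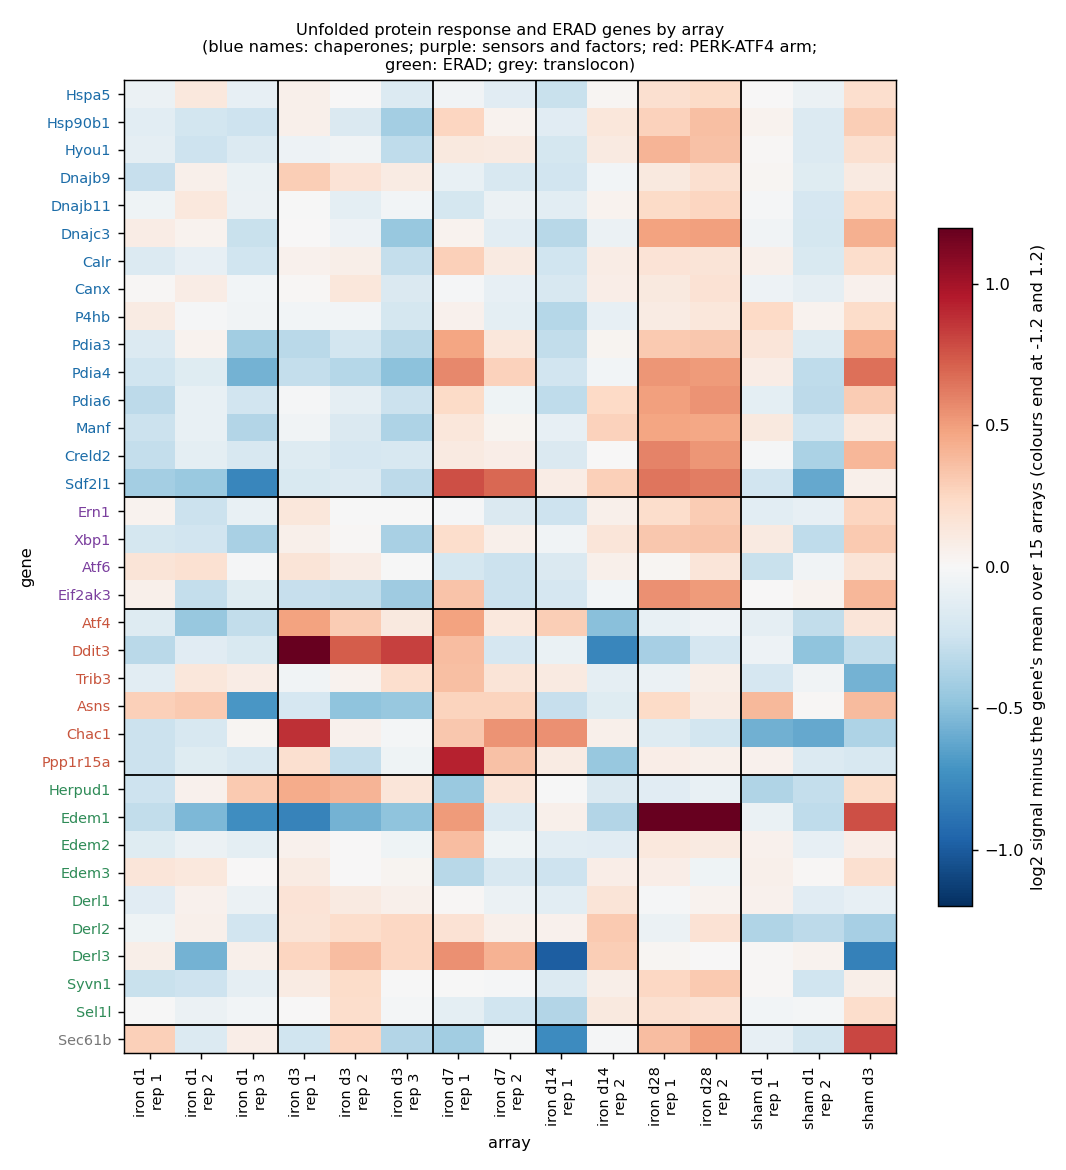
Each of the 35 genes (rows, coloured by branch) in each of 15 arrays (columns, iron days then sham), as log2 signal minus the gene's mean over the arrays. Red is above and blue below that mean. The day 28 columns and the day 3 sham column are red for most chaperones, and Ddit3 is red on iron day 3.

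On day 1, 0 of 34 members passed against sham by limma, where 0.0602% of all genes tested did. An unadjusted p under 0.05 was found for 3 of 34 members and for 1100 of all 9969 genes, so the members' share was not above that of all genes. The 3 members were Pdia4 at -0.46 ± 0.19, Edem1 at -0.65 ± 0.25 and Derl2 at 0.29 ± 0.10 (adjusted p = 0.389, 0.352 and 0.320). Between iron day 3 and iron day 1, 0 members passed, against 0.0502% of all genes. An unadjusted p under 0.05 was found for 7 of 34 members and for 1289 of all 9969 genes. Ddit3 had the smallest p of the 7 members, with a difference of 1.14 ± 0.19 (adjusted p = 0.0564). Without either day 7 array or either day 14 array, 1 member passed between days 3 and 1. The differences that passed lay between iron days 3 to 28 and sham, and between late iron (days 7, 14 and 28, 6 arrays) and early iron (days 1 and 3, 6 arrays). The late minus early difference is taken between averages of iron day means, and its spread is estimated within groups over all 15 arrays, sham included. Differences between the days of a side do not enter its SE or p, while the SDs given over late or early arrays do hold them. At least 1 of the 9 tests was passed by 16 of 34 members (47.1%), against 30.2% of all genes tested. Among the lists of cell type markers the share ran from 22.2% of 9 airway genes to 100% of 13 fibroblast genes. It was 26.7% of 15 cardiomyocyte genes.

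Among the chaperones and folding enzymes, 8 of 15 were higher in late than in early iron arrays, 0 were lower, and the median difference was 0.30, against -0.03 over all genes tested. In each of the 8 the sham mean lay between the early and late means. It was near the late mean for Pdia3 (9.57 sham, 9.59 late, 9.19 early) and near the early mean for Sdf2l1 (6.12 sham, 6.90 late, 6.00 early). Of the 8, only Sdf2l1 passed against sham on any iron day. Late minus early, 11 of the 34 genes of the whole list rose, which is 32.4% against 10.3% of all genes, and 1 fell, which is 2.94% against 11.7%. The genes that rose were Sdf2l1, Pdia4, Manf, Pdia3, Creld2, Pdia6, Hsp90b1, Hyou1, Edem1, Eif2ak3 and Xbp1, and Ddit3 fell. Cell type markers moved with this comparison: 9 of 13 tested fibroblast genes, 8 of 10 macrophage genes, 4 of 13 endothelial genes, 3 of 3 T cell genes, 2 of 3 B and plasma cell genes and 1 of 9 airway genes were higher late and 0 lower. Of 7 smooth muscle genes 1 was higher and 1 lower, and of 15 cardiomyocyte genes 0 were higher and 4 lower. The difference was above 0 in 1 of those 15, against 4214 of all 9969 genes. The part of these markers in the result was not tested. With days 7 and 14 alone as the late days, 4 members passed: Sdf2l1 and Pdia4 higher, Ddit3 and Edem3 lower. Without the replicate 1 array of day 7, or without that of day 28, 7 members passed. With the day 28 pair averaged as 1 array, 7 were higher and 1 lower.

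**Figure D3:**
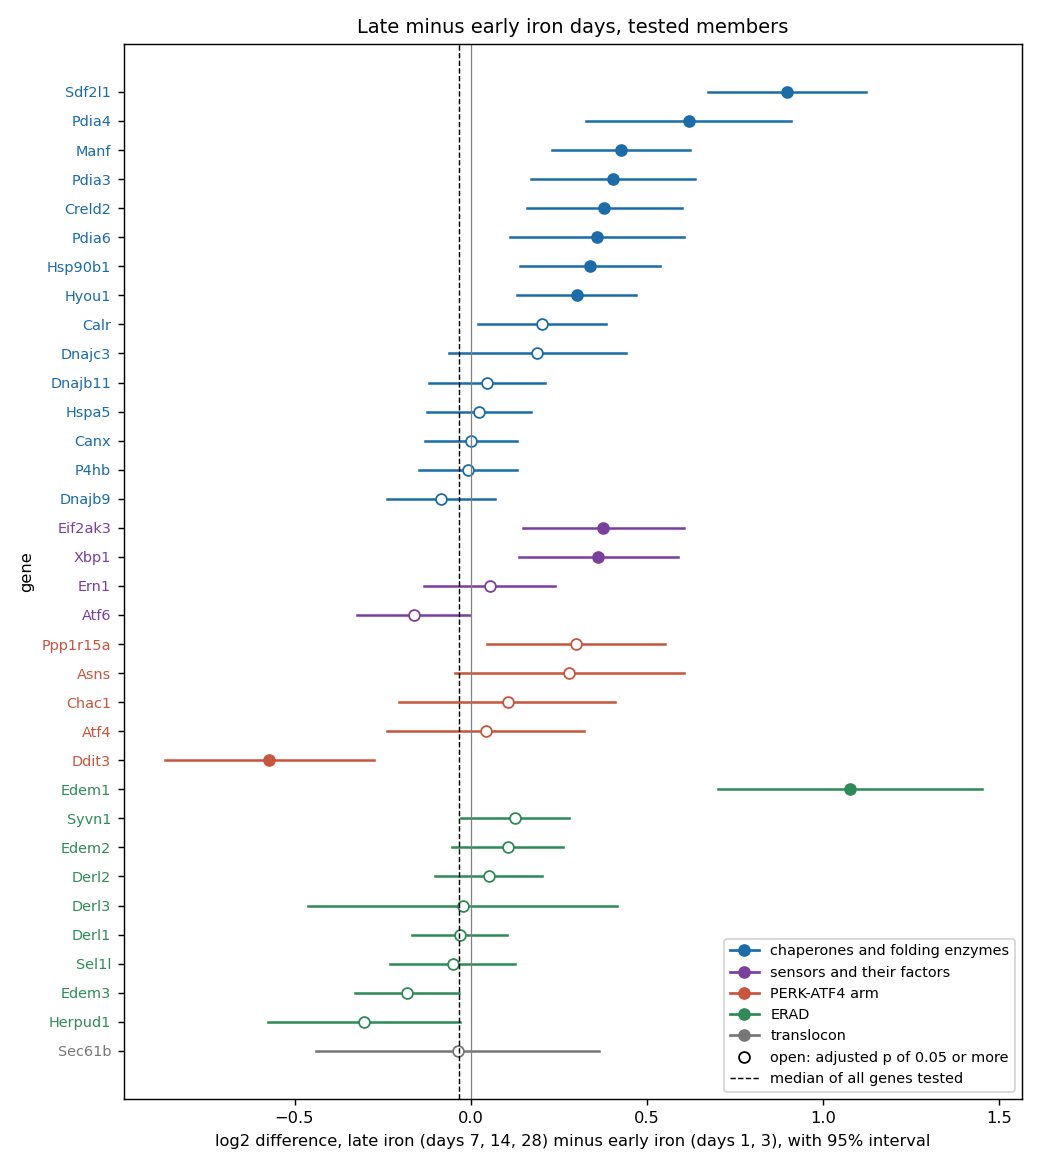
Log2 difference between late iron days (7, 14 and 28) and early iron days (1 and 3) for the 34 tested members, with 95% intervals. Filled points have an adjusted p under 0.05 and the dashed line is the median of all genes tested, at -0.03. The filled points lie to the right, from 0.30 to 1.08, except Ddit3 at -0.57.

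Sdf2l1 encodes an ER-resident partner of the co-chaperone ERdj3 that keeps unfolded chains soluble. Its log2 signals were 5.98, 5.93 and 5.60 on iron day 1, 6.20, 6.22 and 6.07 on day 3, 7.16 and 7.08 on day 7, 6.47 and 6.67 on day 14 and 7.02 and 6.99 on day 28, against 6.15 and 5.77 in the day 1 sham arrays and 6.44 in the day 3 sham array. Every late iron array (6.47 to 7.16) lay above every early one (5.60 to 6.22), the only member of which that held, where 1.77% of all genes had late above early. It averaged 6.90 ± 0.27 over the late arrays and 6.00 ± 0.23 over the early ones (SD, n = 6 each), a difference of 0.90 ± 0.10 and a fold of 1.86 (limma, adjusted p = 0.000169). That call held in each of 15 fits that left out 1 array and in all 11 other settings. Against sham it rose by 1.00 ± 0.16 on day 7 (adjusted p = 0.00789) and by 0.89 ± 0.16 on day 28 (adjusted p = 0.0138), and was 0.45 higher on day 14, which did not pass (adjusted p = 0.222). On days 7, 14 and 28 both arrays lay above all sham arrays, on day 14 by a narrow margin (6.47 against 6.44). Of all genes tested, 15.3%, 13.7% and 25.7% did so on those days. The day 7 call was lost without that day's replicate 1 array (adjusted p = 0.0776), with only the compared arrays in the fit (0.107) and with the day 3 sham array alone as sham (difference 0.68, adjusted p = 0.0819). The day 28 call was lost without either array of that day (0.168 and 0.148), without the replicate 1 array of sham day 1 (0.0517), with the day 28 pair as 1 array (0.178), with only the compared arrays (0.0632) and with the day 3 sham array alone (difference 0.57, adjusted p = 0.271). The mean of 10 B and plasma cell markers was also high on days 7 (1.26 and 0.37) and 28 (0.77 and 0.66) and in the day 3 sham array (0.67), and lay between -0.73 and 0.10 in all other arrays. The macrophage mean was highest on day 7, at 1.24 and 0.75. The T cell mean was 0.11 and -0.30 on day 7 and 2.78 and 2.63 on day 28. The part of these markers in the Sdf2l1 result was not tested.

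Of the disulfide isomerases, Pdia3, Pdia4 and Pdia6 were higher late than early without passing against sham on any iron day, and P4hb did not pass. Pdia4, which carries extra thioredoxin-like domains, had log2 signals of 7.70, 7.79 and 7.36 on iron day 1, 7.65, 7.59 and 7.44 on day 3, 8.51 and 8.21 on day 7, 7.71 and 7.90 on day 14 and 8.46 and 8.45 on day 28, against 8.02 and 7.63 in the day 1 sham arrays and 8.59 in the day 3 sham array. Both day 7 arrays, both day 28 arrays and the day 3 sham array were the highest, and the groups overlapped between day 28 and sham. It averaged 8.21 ± 0.33 over the late arrays and 7.59 ± 0.16 over the early ones, a difference of 0.62 ± 0.14 (adjusted p = 0.00729). The other probe set annotated to Pdia4 correlated with this one at r = 0.14 over the 15 arrays, and with the mean of both the difference was 0.27 (adjusted p = 0.0576). Pdia3 (ERp57), the partner of calnexin and calreticulin, had log2 signals of 9.26, 9.47 and 9.01 on iron day 1, 9.10, 9.20 and 9.09 on day 3, 9.90 and 9.56 on day 7, 9.13 and 9.46 on day 14 and 9.74 and 9.75 on day 28, against 9.57 and 9.27 in the day 1 sham arrays and 9.87 in the day 3 sham array. Day 7, day 28 and the day 3 sham array were again high, and sham day 1 replicate 1 (9.57) was level with the lower day 7 array (9.56). Both day 14 arrays lay within the early range of 9.01 to 9.47. Pdia3 was 0.40 ± 0.11 higher late (adjusted p = 0.0189, or 0.0620 without the replicate 1 array of day 7). With days 7 and 14 alone as the late days its difference was 0.33 (adjusted p = 0.0819). With the replicate number as a block it was 0.33 too (adjusted p = 0.0562). Pdia6, which also acts on the sensors, averaged 7.79 ± 0.32 over the late arrays and 7.43 ± 0.12 over the early ones, with a difference of 0.36 ± 0.11 (adjusted p = 0.0404). This call was lost in 11 of 15 fits that left out 1 array: any of the 6 early arrays, day 7 replicate 1, day 14 replicate 2, either day 28 array or sham day 1 replicate 1 (adjusted p up to 0.114). It was also lost with no filter, with the replicate number as a block, with the day 28 pair as 1 array and with days 7 and 14 alone (adjusted p = 0.318). P4hb, the founding isomerase, differed by -0.01 ± 0.06 between late and early arrays (adjusted p = 0.949).

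Manf and Creld2 encode small ER proteins that are induced by stress and partly secreted. Manf had log2 signals of 7.30, 7.48 and 7.21 on iron day 1, 7.52, 7.38 and 7.19 on day 3, 7.70 and 7.59 on day 7, 7.46 and 7.84 on day 14 and 8.03 and 8.02 on day 28, against 7.68 and 7.32 in the day 1 sham arrays and 7.69 in the day 3 sham array. All 6 late arrays but 1 lay above every early array, and both day 28 arrays lay above sham. It averaged 7.77 ± 0.23 over the late arrays and 7.35 ± 0.14 over the early ones, a difference of 0.43 ± 0.09 (adjusted p = 0.00647), and with days 7 and 14 alone as the late days the difference was 0.30 (adjusted p = 0.0605). Creld2, whose window carries ERSE on the opposite strand, had log2 signals of 6.95, 7.11 and 7.04 on iron day 1, 7.08, 7.03 and 7.04 on day 3, 7.34 and 7.31 on day 7, 7.06 and 7.23 on day 14 and 7.83 and 7.76 on day 28, against 7.22 and 6.85 in the day 1 sham arrays and 7.63 in the day 3 sham array. The early arrays lay close together, between 6.95 and 7.11, and the day 28 arrays lay above every other array. It was 0.38 ± 0.10 higher late (adjusted p = 0.0193). The call was lost without day 28 replicate 1 (0.0548) and with days 7 and 14 alone, where the difference was 0.19 (adjusted p = 0.264). The day 3 sham array, at 7.63, came next after the day 28 arrays for Creld2.

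Hyou1 encodes the large Hsp70-like protein that exchanges nucleotide on BiP, and Hsp90b1 encodes GRP94, the Hsp90 of the ER. Hyou1 had log2 signals of 6.95, 6.81 and 6.89 on iron day 1, 7.00, 7.02 and 6.76 on day 3, 7.17 and 7.17 on day 7, 6.85 and 7.17 on day 14 and 7.46 and 7.41 on day 28, against 7.07 and 6.90 in the day 1 sham arrays and 7.25 in the day 3 sham array. The day 28 arrays were the highest and day 14 was split, with 1 array among the early values. Hyou1 differed by 0.30 ± 0.08 between late and early arrays (adjusted p = 0.0171, or 0.0509 without day 28 replicate 1 and 0.165 with days 7 and 14 alone). Hsp90b1 averaged 10.04 ± 0.18 over the late arrays and 9.70 ± 0.16 over the early ones, a difference of 0.34 ± 0.09 (adjusted p = 0.0208), and its highest adjusted p without 1 array was 0.0641. The call of Hsp90b1 was lost without day 7 replicate 1, day 14 replicate 2 or day 28 replicate 2, and with the day 28 pair as 1 array. It was also lost with the replicate number as a block and with days 7 and 14 alone (difference 0.26, adjusted p = 0.107). The block lost the call of Hyou1 as well (adjusted p = 0.0655). The remaining chaperones did not pass. Hspa5, the BiP gene and the most used marker of this response, averaged 10.67 ± 0.19 over the late arrays and 10.64 ± 0.11 over the early ones, a difference of 0.03 ± 0.07 with a 95% interval of -0.12 to 0.17. Its day 28 arrays read 10.86 and 10.89, against 10.67, 10.59 and 10.87 in sham arrays, and so overlapped. Calr (calreticulin) differed by 0.20, Dnajc3 (p58IPK, an inhibitor of PERK) by 0.19, Dnajb11 (ERdj3) by 0.05, Canx (calnexin) by 0.00 and Dnajb9 (ERdj4) by -0.09, with adjusted p from 0.102 to 0.989. Of the chaperone genes with an ERSE match in the window, 3 of 7 rose late, as did 3 of 6 with a window and no ERSE match, where 10.3% of all genes rose. The 6 include Dnajb11, which holds ERSE-II and did not pass.

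Of the sensors and their factors, Eif2ak3 and Xbp1 rose late, 2 of 4, and Ern1 and Atf6 did not pass. Eif2ak3 (PERK) had log2 signals of 5.91, 5.57 and 5.71 on iron day 1, 5.58, 5.56 and 5.43 on day 3, 6.20 and 5.59 on day 7, 5.65 and 5.81 on day 14 and 6.40 and 6.36 on day 28, against 5.86 and 5.90 in the day 1 sham arrays and 6.25 in the day 3 sham array. Its day 28 arrays lay above all others, day 7 was split between 6.20 and 5.59, and the late and early arrays overlapped. Eif2ak3 averaged 6.00 over the late arrays and 5.62 over the early ones, against 6.00 in sham arrays. The late minus early difference was 0.38 ± 0.11 (adjusted p = 0.0241), and with days 7 and 14 alone it was 0.19 (adjusted p = 0.303). With the replicate number as a block it was 0.35 (adjusted p = 0.0581). It was lost without any 1 of 7 arrays (day 1 replicates 2 and 3, day 3 replicate 3, day 7 replicate 1, day 14 replicate 2 and both of day 28), with adjusted p up to 0.0690, and with the day 28 pair as 1 array (0.0573). Xbp1, the transcript that IRE1 splices, had log2 signals of 8.58, 8.56 and 8.40 on iron day 1, 8.84, 8.80 and 8.39 on day 3, 9.00 and 8.84 on day 7, 8.74 and 8.93 on day 14 and 9.10 and 9.12 on day 28, against 8.89 and 8.48 in the day 1 sham arrays and 9.10 in the day 3 sham array. Its day 28 arrays and the day 3 sham array read nearly alike, at 9.10 to 9.12. Xbp1 differed by 0.36 ± 0.10 between late and early arrays (adjusted p = 0.0268). With the replicate number as a block the difference was 0.26 (adjusted p = 0.0685). The call was lost without any 1 of 6 arrays (day 1 replicate 3, day 3 replicate 3, day 7 replicate 1, day 14 replicate 2 and both of day 28), with adjusted p up to 0.0738, with the day 28 pair as 1 array (0.0627) and with days 7 and 14 alone (difference 0.28, adjusted p = 0.114). Ern1 (IRE1) differed by 0.05 ± 0.09 and Atf6 by -0.16 ± 0.07 (adjusted p = 0.690 and 0.137). None of the 4 passed against sham on any iron day.

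In the PERK-ATF4 arm the genes that rose against sham did so on days 3 and 7. On day 3, 3 of 34 members rose against sham (8.82%, where 2.79% of all genes rose) and 0 fell (5.25% of all genes fell). The 3 were Ddit3 and Chac1 of this arm and the ERAD gene Derl2. The sham signals of Chac1 lay below the level at which genes were tested. In the same comparison 12 of 13 fibroblast, 8 of 10 macrophage and 9 of 13 endothelial marker genes were lower. Of the other non-cardiomyocyte lists, 1 of 7 smooth muscle and 1 of 3 erythroid genes were lower and 1 of 9 airway genes was higher. Of 3 T cell and 3 B and plasma cell genes, 0 passed. The part of these markers in the result was not tested. Without the replicate 2 array of sham day 1, 5 members passed. On day 7, 4 members rose (11.8%, against 1.94% of all genes) and 0 fell (2.67% of all genes): Chac1 and Ppp1r15a of this arm, Sdf2l1 and Derl2. That count fell to 0 without day 7 replicate 1, to 1 without either day 1 sham array, and to 2 without day 7 replicate 2, the day 3 sham array or either day 28 array. On day 7 the replicate 1 array also had the highest mean of 21 immediate early genes, 1.05, against -0.12 in its fellow and -0.42 to -0.07 in sham arrays, and its part in the result was not tested.

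Ddit3 encodes CHOP, the transcription factor linked to cell death under ER stress. It had log2 signals of 6.59, 6.77 and 6.73 on iron day 1, 8.14, 7.64 and 7.73 on day 3, 7.28 and 6.71 on day 7, 6.83 and 6.12 on day 14 and 6.51 and 6.71 on day 28, against 6.85 and 6.43 in the day 1 sham arrays and 6.61 in the day 3 sham array. The 3 day 3 arrays lay above all other arrays, and no other day stood apart from sham. Ddit3 averaged 7.84 ± 0.26 on iron day 3 and 6.63 ± 0.21 in sham arrays (SD, n = 3 each). The difference was 1.21 ± 0.19, a fold of 2.31 (limma, adjusted p = 0.00679), and it passed in all 15 fits that left out 1 array and in all 13 other settings. Late minus early iron arrays, the difference was -0.57 ± 0.14 (adjusted p = 0.0116), the one fall in the list, which passed in all 15 such fits and in all 12 other settings.

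Chac1, an ATF4 target that breaks down glutathione, had log2 signals of 5.47, 5.53 and 5.75 on iron day 1, 6.60, 5.78 and 5.70 on day 3, 6.05 and 6.27 on day 7, 6.27 and 5.78 on day 14 and 5.57 and 5.51 on day 28, against 5.15 and 5.11 in the day 1 sham arrays and 5.36 in the day 3 sham array. All 12 iron arrays lay above the 3 sham arrays (5.11 to 5.36). How many of all genes were split in this way was not counted. All 3 sham arrays lay below 5.51, the mean signal a gene needed to be tested. Chac1 was thus tested only through the level of its iron arrays, and its calls against sham are not independent of that filter. The fibroblast mean also separated these arrays, at 0.53 or less in iron arrays and 0.64 or more in sham arrays, and its part in the result was not tested. On day 3, where replicate 1 stood high at 6.60, Chac1 rose by 0.82 ± 0.20 (adjusted p = 0.0276), and on day 7 by 0.96 ± 0.23 (adjusted p = 0.0317). On day 14 the difference was 0.82 ± 0.23 (adjusted p = 0.116). With the replicate number as a block, neither the day 3 nor the day 7 call held (adjusted p = 0.0802 and 0.0501). The day 3 call was lost without any sham array or without replicate 1 or 2 of that day (adjusted p up to 0.0859), and without replicate 1 the difference was 0.54. With the day 3 sham array alone it was 0.67 (adjusted p = 0.193). The day 7 call was lost without either array of that day, either day 1 sham array or either day 28 array (adjusted p up to 0.124), with the day 3 sham array alone (0.223), with array weights (0.0611), with quantile normalization (0.0505) and with the day 28 pair as 1 array (0.0514). Ppp1r15a (GADD34), the phosphatase subunit that restores translation, had log2 signals of 6.56, 6.67 and 6.62 on iron day 1, 7.01, 6.53 and 6.76 on day 3, 7.74 and 7.17 on day 7, 6.91 and 6.36 on day 14 and 6.89 and 6.88 on day 28, against 6.87 and 6.66 in the day 1 sham arrays and 6.63 in the day 3 sham array. Replicate 1 of day 7 stood alone at 7.74, and the second array of that day, at 7.17, was next. It rose by 0.73 ± 0.19 on day 7 (adjusted p = 0.0405). Without replicate 1 of day 7 the difference was 0.45 (adjusted p = 0.276), and the call was also lost without 8 other arrays: day 1 replicates 2 and 3, day 3 replicate 3, both of day 28 and all 3 sham arrays (adjusted p up to 0.0990). It held in 5 of 13 other settings.

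**Figure D4:**
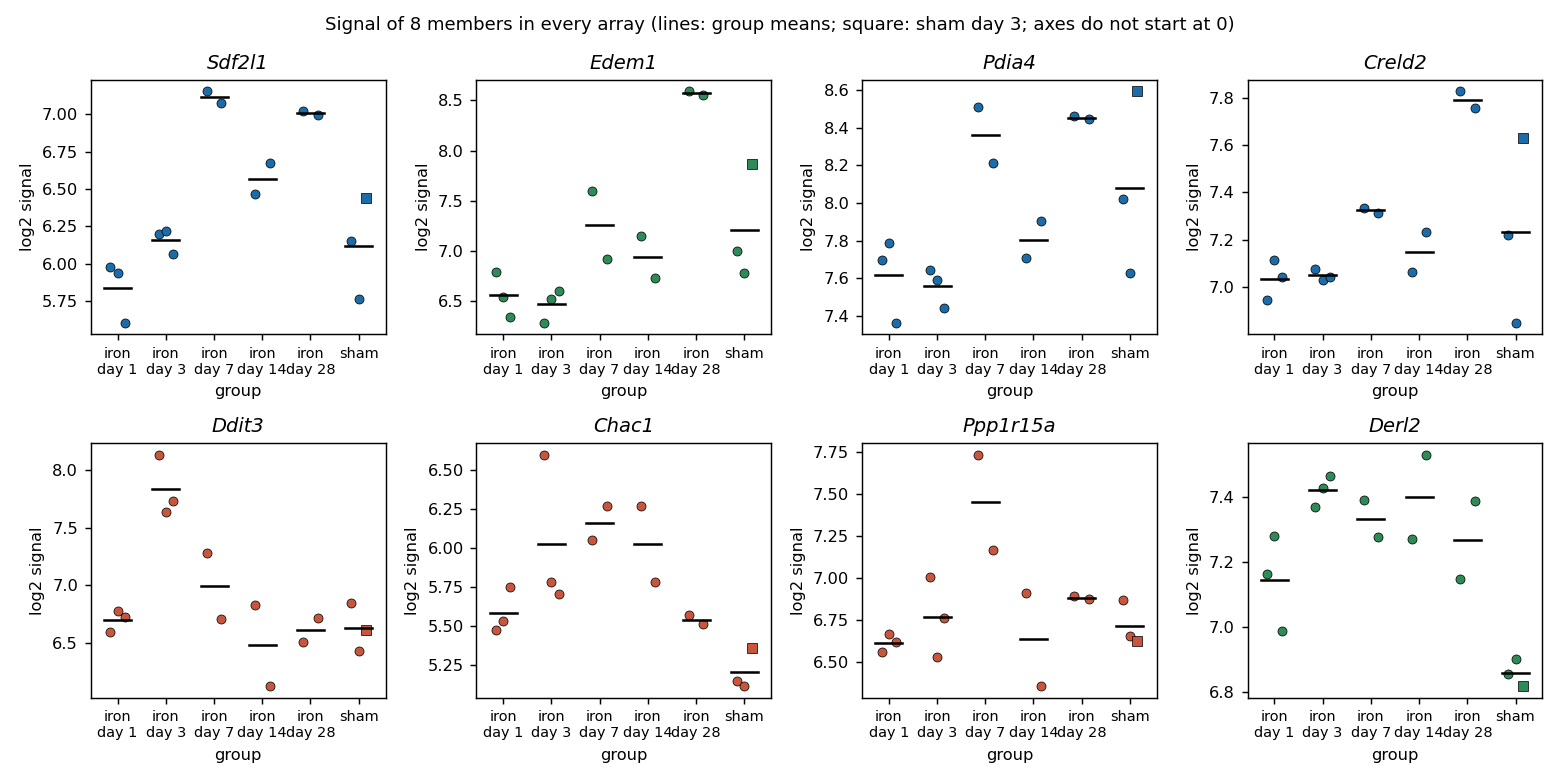
Log2 signal (y axes, which do not start at 0) of 8 members in every array, with iron days on the left and sham on the right. Points are arrays, lines are group means and squares mark the day 3 sham array. Sdf2l1 is high on days 7 and 28, Edem1 on day 28 (8.56 and 8.59), Ddit3 on day 3 (7.64 to 8.14), and Derl2 lies above its sham arrays on every iron day.

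Atf4 itself did not pass in any comparison. It averaged 7.89 ± 0.18 on day 3 (SD, n = 3), against 7.50 ± 0.22 in sham arrays, a difference of 0.38 ± 0.18 (adjusted p = 0.195), and its day 7 difference was 0.39 ± 0.20 (adjusted p = 0.261). Asns, asparagine synthetase, whose window carries the C/EBP-ATF element, went the other way on day 3 without passing, at -0.64 ± 0.21 (adjusted p = 0.0805). Its signals were 5.18 to 5.46 on iron day 3 and 5.68 to 6.05 in sham arrays, which did not overlap. On that day 15.8% of all genes and 14.7% of members lay wholly below sham. Trib3, a pseudokinase and ATF4 target, lay below the signal filter. It read 4.13 to 4.62 in iron arrays and 3.69 to 4.22 in sham arrays, and no test was made.

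Of the 9 ERAD genes, Edem1, Derl2 and Syvn1 passed at least 1 of the 9 tests, 33.3%, near the 30.2% of all genes. Edem1 is a lectin-like protein that helps trim mannose from misfolded glycoproteins and marks them for removal. It had log2 signals of 6.80, 6.54 and 6.34 on iron day 1, 6.29, 6.52 and 6.60 on day 3, 7.60 and 6.93 on day 7, 7.15 and 6.74 on day 14 and 8.59 and 8.56 on day 28, against 7.00 and 6.78 in the day 1 sham arrays and 7.86 in the day 3 sham array. The day 28 arrays lay above every other array, followed by the day 3 sham array and then day 7 replicate 1. The 3 arrays with the highest Edem1 signals were also the 3 with the highest T cell marker means, and the part of those cells in the result was not tested. Edem1 averaged 8.57 ± 0.02 on day 28 (SD, n = 2) and 7.21 ± 0.57 in sham arrays (n = 3), a difference of 1.36 ± 0.27 and a fold of 2.57 (adjusted p = 0.0225). Without the day 3 sham array the difference was 1.68 (adjusted p = 0.000784), and with that array alone as sham it was 0.71 (adjusted p = 0.435). The call was lost without either day 28 array (0.193 and 0.188), without either day 1 sham array (0.104 and 0.0908), with the day 28 pair as 1 array (0.238) and with only the compared arrays (0.0665). Late iron arrays were higher than early ones by 1.08 ± 0.17 (adjusted p = 0.00140), a call that held in all 15 fits without 1 array. With days 7 and 14 alone as the late days the difference was 0.59 (adjusted p = 0.0556).

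On day 28, Edem1 and Sdf2l1 were the 2 members that rose against sham (5.88%, where 1.41% of all genes rose), and 0 fell (0.582% of all genes fell). On the same day 2 of 3 tested T cell genes rose, and their part in the result was not tested. The count was 0 without either day 28 array, without the first sham array of day 1 (replicate 1) and with the day 28 pair as 1 array. It was 1 without the replicate 2 sham array of day 1 and 5 when the day 3 sham array was left out. In 16 of 34 members (47.1%) both day 28 arrays lay above all 3 sham arrays, against 25.7% of all genes tested, and in 0 members they lay below, against 19.4%. Beside Sdf2l1 and Edem1 the 16 were Hyou1, Dnajb9, Dnajc3, Canx, Pdia6, Manf, Creld2, Xbp1, Eif2ak3, Chac1, Ppp1r15a, Edem2, Derl2 and Syvn1. The share on day 7 was 14.7% above, near the 15.3% of all genes, and 5.88% below, against 22.5%.

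Derl2, a Derlin of the channel through which chains leave the ER, was the one member that passed with all iron days pooled (2.94%, against 0.672% of all genes), and 0 members fell (0.461% of all genes). It had log2 signals of 7.16, 7.28 and 6.99 on iron day 1, 7.37, 7.43 and 7.46 on day 3, 7.39 and 7.28 on day 7, 7.27 and 7.53 on day 14 and 7.15 and 7.39 on day 28, against 6.86 and 6.90 in the day 1 sham arrays and 6.82 in the day 3 sham array. Each of the 12 iron arrays lay above the 3 sham arrays, which spanned 6.82 to 6.90. The share of all genes split in this way was not counted. The mean of 14 fibroblast genes split the same arrays, at 0.53 or less in iron arrays and 0.64 or more in sham arrays. Its part in the Derl2 result was not tested. The difference over all iron days was 0.45 ± 0.08, a fold of 1.37 (adjusted p = 0.0127), and it was lost without any 1 of the 3 sham arrays (adjusted p from 0.0524 to 0.0946, difference 0.43 to 0.48) and with the day 3 sham array alone (0.157). A fit with the replicate number as a block also lost the Derl2 call over all iron days (adjusted p = 0.0754). Without the replicate 1 array of iron day 1 or of iron day 3, 2 members passed over all iron days, and without either day 1 sham array 0 did. By day, Derl2 rose by 0.56 ± 0.10 on day 3 (adjusted p = 0.00842), 0.47 ± 0.11 on day 7 (0.0317) and 0.54 ± 0.11 on day 14 (0.0433). It was the one member to rise on day 14 (2.94%, against 0.592% of all genes), and 0 fell (0.241% of all genes). The day 3 call held in all 15 fits without 1 array, and was lost with the day 3 sham array, the one of the same day, as the only sham (difference 0.60, adjusted p = 0.0563). The day 7 call was lost without any 1 of that day's arrays or of the sham arrays (adjusted p up to 0.179), and held in 7 of 13 other settings. The day 14 call was lost without any 1 of 10 arrays, those of days 3, 14, 28 and sham (adjusted p up to 0.136), and the day 14 count was then 0 except without day 3 replicate 1, where it was 1. The day 14 call held in 5 of 13 other settings. On day 28 the difference was 0.41 ± 0.11 (adjusted p = 0.0793), and on day 1 0.29 ± 0.10 (adjusted p = 0.320).

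Syvn1 (HRD1), the ubiquitin ligase at the centre of ERAD, passed the F test among the 5 iron days only (adjusted p = 0.0490), with group means of 6.87 on day 1, 7.18 on day 3, 7.06 on day 7, 7.03 on day 14 and 7.35 on day 28, against 7.02 in sham arrays. In that F test 11 of 34 members passed, 32.4% against 19.2% of all genes: Sdf2l1, Edem1, Ddit3, Pdia4, Manf, Creld2, Eif2ak3, Hyou1, Ppp1r15a, Pdia3 and Syvn1. The count was 3 without either day 28 array or with that pair as 1 array, and 6 without day 3 replicate 2, day 3 replicate 3 or day 7 replicate 1. The other ERAD genes did not pass. Herpud1, a stress-induced scaffold of the HRD1 complex, differed by -0.30 ± 0.13 between late and early arrays (adjusted p = 0.103), and Edem3 by -0.18 ± 0.07 (adjusted p = 0.0743). With days 7 and 14 alone as the late days Edem3 fell by 0.24 (adjusted p = 0.0456). Edem2, Derl1, Derl3 and Sel1l, the partner of HRD1, differed by 0.11, -0.03, -0.02 and -0.05. Derl3 varied widely on day 14, with 6.26 in 1 array and 7.54 in the other.

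The members without a call still varied by day. Dnajc3 averaged 8.34 ± 0.01 on day 28 (n = 2), against 7.91 ± 0.33 in sham arrays (n = 3), a difference of 0.43 ± 0.18 (adjusted p = 0.225). Herpud1 averaged 10.53 ± 0.16 on iron day 3, against 10.05 ± 0.32 in sham arrays (n = 3 each), a difference of 0.48 ± 0.18 (adjusted p = 0.112). The day 3 sham array read 8.28 for Dnajc3, just below the day 28 arrays, and 10.41 for Herpud1, within the range of day 3. Dnajb9 differed from sham by 0.19 ± 0.10 on day 3 and Edem2 by 0.15 ± 0.12 on day 7 (adjusted p = 0.242 and 0.457). Derl3 differed by 0.73 ± 0.32 on day 7, where both arrays lay above sham (adjusted p = 0.188), as in 15.3% of all genes. P4hb was below all sham arrays on days 3 and 14, by differences of -0.26 ± 0.09 and -0.39 ± 0.10 (adjusted p = 0.0905 and 0.101). On those days 15.8% and 17.0% of all genes lay below sham, against 14.7% and 11.8% of members.

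Sec61b, a subunit of the channel through which chains enter the ER, had log2 signals of 5.89, 5.44 and 5.69 on iron day 1, 5.37, 5.86 and 5.25 on day 3, 5.19 and 5.58 on day 7, 4.86 and 5.59 on day 14 and 5.98 and 6.10 on day 28, against 5.51 and 5.38 in the day 1 sham arrays and 6.41 in the day 3 sham array. The day 3 sham array was the highest and a day 14 array the lowest, and no comparison passed. Its probe set was the brightest of 3, and the others correlated with it at r = -0.03 and -0.02 over the arrays, so it is uncertain which of them follows the gene.

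**Figure D5:**
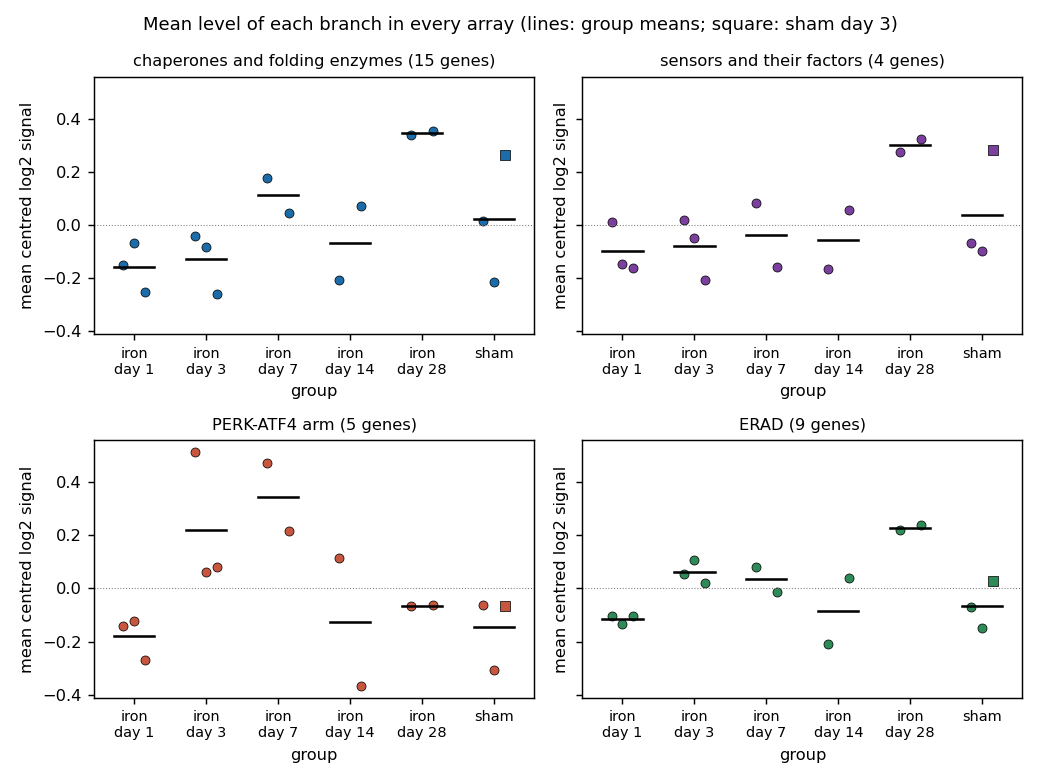
Mean centred log2 signal (y axis) of the tested genes of 4 branches in every array, iron days on the left and sham on the right. Points are arrays, lines are group means and squares mark the day 3 sham array. The chaperone mean is 0.34 and 0.36 on day 28 and 0.26 in the square, while the mean of the PERK-ATF4 arm is highest in 1 array each of days 3 (0.51) and 7 (0.47).

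The plot of branch means sets the branches side by side. The median difference from sham over the 15 chaperones was -0.19, -0.15, 0.09, -0.08 and 0.26 on days 1, 3, 7, 14 and 28. Over the 4 sensors and factors it was -0.19, -0.06, -0.10, -0.05 and 0.27. Both were highest on day 28, where 14 of 15 chaperones and 4 of 4 sensors had a positive difference. Of all 9969 genes, 5345 did. The members share the same arrays, so these counts are not of independent genes. Over the 5 tested genes of the PERK-ATF4 arm it was -0.10, 0.38, 0.39, -0.08 and 0.01, and over the 9 ERAD genes 0.00, 0.16, 0.04, -0.10 and 0.14. The median over all genes tested stayed between -0.03 and 0.04. These medians carry no test, the days share their sham arrays, and their size depended on which sham array was used. The sign of 12 of the 20 medians changed under at least 1 alternative. With the day 3 sham array alone, the day 28 median was 0.04 for chaperones and 0.01 for sensors, and the day 3 median of the PERK-ATF4 arm was 0.15. In that sham array the chaperone mean was 0.26, close to the day 28 arrays (0.34 and 0.36) and above the day 1 sham arrays (0.02 and -0.22).

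Other genes of these pathways were taken from 9 lists with 159 tested genes, of which 38 passed at least 1 of the 9 tests, 23.9% against 30.2% of all genes. Up to 3 genes a list are named by their smallest p over all groups, and the others given here to complete a small count were chosen after their values were seen. Of 17 further ATF4 targets, 2 rose on day 3 (11.8%, against 2.79% of all genes). They were Atf3, a stress-induced transcription factor, with a difference of 1.77 ± 0.44 (adjusted p = 0.0289), and Ddit4 (REDD1), an inhibitor of mTORC1 signalling, with 1.27 ± 0.27 (adjusted p = 0.0168). Ddit4 was also higher on day 7 by 1.48 ± 0.30 (adjusted p = 0.0190), on day 14 by 1.66 ± 0.30 (adjusted p = 0.0187) and over all iron days by 1.08 ± 0.21 (adjusted p = 0.0276). On day 7 Stc2 (stanniocalcin 2) fell, at -0.52 ± 0.14 (adjusted p = 0.0459), so that 1 of the 17 rose and 1 fell that day. Late minus early, 2 of the 17 fell (11.8%, against 11.7% of all genes): Stc2, at -0.48 ± 0.09 (adjusted p = 0.00252), and Eif4ebp1, a repressor of cap-dependent translation, at -0.34 ± 0.10 (adjusted p = 0.0315). Of 15 cytosolic aminoacyl-tRNA synthetases, many of which are ATF4 targets too, 0 rose late (10.3% of all genes did) and 3 fell (20%, against 11.7% of all genes). They were Eprs at -0.20 ± 0.06 (adjusted p = 0.0251), Iars at -0.18 ± 0.05 (adjusted p = 0.0271) and Lars at -0.20 ± 0.06 (adjusted p = 0.0225), and Gars passed the F test among the iron days (adjusted p = 0.0466).

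Of 21 further ER folding and redox genes, 1 rose late (4.76%, against 10.3% of all genes) and 3 fell (14.3%, against 11.7%). Serp1, which stabilises membrane proteins under ER stress, rose by 0.71 ± 0.19 (adjusted p = 0.0198). Ero1a, the oxidase that recharges the disulfide isomerases, was at -0.29 ± 0.07 (adjusted p = 0.00881), Rcn2, a calcium-binding protein of the ER, at -0.30 ± 0.06 (adjusted p = 0.00635) and Tmx1, a membrane-bound isomerase, at -0.32 ± 0.09 (adjusted p = 0.0184). Sec63, a J-domain partner of BiP at the channel, passed the F test only (adjusted p = 0.0478). Of 23 further ERAD genes, 0 rose late (10.3% of all genes did) and 3 fell (13%, near the 11.7% of all genes). Erlec1, a lectin that recognises trimmed glycans, was at -0.28 ± 0.07 (adjusted p = 0.0123) late and -0.47 ± 0.11 (adjusted p = 0.0303) on day 7, Nploc4, a cofactor of the VCP segregase, at -0.18 ± 0.04 (adjusted p = 0.0144) and Marchf6, an ER ubiquitin ligase, at -0.17 ± 0.05 (adjusted p = 0.0388). Of 18 N-glycosylation genes, 0 rose late and 1 fell (5.56%, against 11.7% of all genes), the oligosaccharyltransferase subunit Dad1, at -0.17 ± 0.05 (adjusted p = 0.0421).

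Of 17 translocation genes, 2 rose late and 2 fell, 11.8% each way, near the 10.3% and 11.7% of all genes. Tram1, a membrane protein beside the channel, rose late by 0.30 ± 0.08 (adjusted p = 0.0179), and on day 3 it was below sham at -0.39 ± 0.11 (adjusted p = 0.0481). Sec61a1, the pore-forming subunit, rose late by 0.34 ± 0.10 (adjusted p = 0.0338). Sec61a2, its paralogue, was at -0.18 ± 0.06 (adjusted p = 0.0457) and Ssr3, of the translocon-associated complex, at -0.19 ± 0.06 (adjusted p = 0.0457). Among 13 further sensors and factors, Bcl2l11 (BIM), a death-promoting BCL2 relative and CHOP target, rose by 0.73 ± 0.12 (adjusted p = 0.00745) on day 3, by 0.60 ± 0.14 (adjusted p = 0.0301) on day 7, by 0.70 ± 0.14 (adjusted p = 0.0214) on day 28 and by 0.57 ± 0.10 (adjusted p = 0.0112) over all iron days. Eif2ak1, the haem-regulated kinase that also feeds into ATF4, was at -0.19 ± 0.06 (adjusted p = 0.0465) late minus early, and Mbtps1, the protease that cuts ATF6, passed the F test only (adjusted p = 0.0172).

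Of 15 cytosolic heat shock genes, Hsph1 (HSP110) rose by 1.08 ± 0.25 (adjusted p = 0.0309) on day 7 and Bag3, a co-chaperone of muscle, by 0.47 ± 0.11 (adjusted p = 0.0224) on day 3. Late minus early, 2 of the 15 rose (13.3%, against 10.3% of all genes), Hsph1 by 0.88 ± 0.16 (adjusted p = 0.00261) and Hspa8 by 0.16 ± 0.05 (adjusted p = 0.0268), and Hsf2 was at -0.30 ± 0.07 (adjusted p = 0.0106). Of 20 immediate early genes, which respond quickly to stimulation and to cell isolation, 4 rose on day 3 (20%, against 2.79% of all genes): Nr4a3 by 1.72 ± 0.36 (adjusted p = 0.0159), with Dusp1, Ier5 and Jun. Late minus early, Myc and Klf6 rose and Ier3 and Ier5 fell, 10% each way and near all genes. In the F test among iron days 9 of the 20 passed, where 19.2% of all genes did, Nr4a1 among them (adjusted p = 0.0174). The median difference of these 20 from sham was 0.55 on day 3 and 0.62 on day 7, the days of the calls in the PERK-ATF4 arm, and their part in that arm's result was not tested.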

How the data were processed

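Transcripts of isolated left ventricular cardiomyocytes were measured on 15 expression arrays. The deposited table holds 1 log2 value per probe set and array, as the authors made it. The submitters' processing notes name MAS5, with no version or role, and the background correction, normalization and summary of the values are otherwise not given in the sources that were used. Array medians lay between 4.96 and 5.13, no value was missing, and the number of arrays limits the precision. Of 34760 probe sets, 21640 had 1 gene symbol, 1321 several and 11799 none in the platform annotation. Each of 19937 genes was read from its single-symbol probe set with the highest mean over the arrays, and the 9969 genes at or above a mean of 5.51 were tested.

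No further normalization was applied. A linear model with 1 mean per group (sham days 1 and 3 as 1 group, 5 iron days) was fitted with limma 3.58.1 in R 4.3.3, with moderated variances and an intensity trend. The 9 tests were each iron day and all iron days against sham, iron day 3 against day 1, late (days 7, 14 and 28) against early (days 1 and 3) iron days, and an F test among iron days. Adjusted p is Benjamini-Hochberg adjusted, with a threshold of 0.05. The fit was also run on simulated data with independent noise for each gene and array. Those data held no effects shared by the genes of an array, so the run cannot speak to such effects here. Promoters were searched with Python 3.11.15 and pandas 2.3.3, and figures drawn with matplotlib 3.10.9.

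The members and lists were chosen with earlier results of these data known. Values in every array are given for the members that passed a test (at most 12, by the F test) and for the 2 of each branch with the smallest p over all groups. Of other pathway genes, up to 3 a list are named by that p among those that passed.

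Alternatives were quantile normalization, median centring, no filter or a stricter one (a mean of at least 6.44), no trend, array weights, a replicate block, the mean over a gene's probe sets, a fit of the compared arrays alone, either sham day alone and each array left out in turn. The use of days 7 and 14 alone, the day 28 pair averaged, and the removal of the day 3 sham and iron day 1 replicate 1 arrays were chosen after seeing the data. Replicate numbers in the labels were not used as pairs in the main fit. Of 31 pairs with the same number, 11 had deviations correlated above 0.1 (median 0.062, range -0.39 to 0.57). Of 50 pairs with other numbers, 14 did (median -0.029, range -0.57 to 0.49). Whether the numbers mark pairs was not settled by these values. Proton arrays were not analysed here.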

Additional observations from a re-analysis of the deposited data

Results flagged for a closer look

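For 12 members the late iron days (7, 14 and 28) differed from the early iron days (1 and 3) by the limma test of that difference itself. The test set averages of day means against each other. Each side held 6 arrays, but these were not replicates of 1 condition. The error was the spread within groups, and differences between the days of a side did not enter it. Sdf2l1 was higher by 0.898 log2 units, Edem1 by 1.08, Pdia4 by 0.619, Manf by 0.428, Pdia3 by 0.404, Creld2 by 0.380, Eif2ak3 by 0.377, Xbp1 by 0.362, Pdia6 by 0.359, Hsp90b1 by 0.339 and Hyou1 by 0.301. Ddit3 differed by -0.572. The late days hold no sham arrays of their own, so time after exposure and time of the experiment cannot be told apart.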

How the results depend on the processing

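No difference of a named member that passed, as reported or under an alternative, had the other sign. Of the 20 branch medians, which carry no test, 12 changed sign under at least 1 alternative (51 of 560 values). Of the counts and branch medians, 700 values stayed close to those reported and 107 moved. Of the differences of named members, 3205 stayed on their side of the threshold, 166 lost it and 51 gained it. In what follows, a count is the number of members that passed. With array weights the counts were 20 in the F test among iron days, 3 for all iron days, 0 on day 14, 15 on day 28, 1 for day 3 minus day 1, 9 on day 3 and 1 on day 7. With the day 28 pair averaged they were 3 in the F test, 0 on day 14, 0 on day 28 and 2 on day 7, and with days 7 and 14 alone as late days 4 late minus early. With no filter the day 14 count was 0. With the stricter filter it was 1 on day 28, 1 for day 3 minus day 1 and 2 on day 7. Of the members called on days 7 and 28, Sdf2l1 (mean 6.38) and Chac1 (mean 5.73) lay below that filter and were not tested under it. With only the arrays compared the count was 0 on day 14, 0 on day 28, 5 on day 3 and 1 on day 7. With the replicate block, which lacks the unnumbered day 3 sham array, it was 0 on day 14, 6 on day 28, 1 on day 7 and 6 late minus early. That fit gave medians of the ERAD genes of 0.0528 on day 14 and 0.173 on day 7, the same as day 1 sham alone without a block, of chaperones of -0.0299 on day 1 and 0.0522 on day 3, and of sensors of -0.0295 on day 1 and 0.128 on day 3. With day 1 sham alone the counts were 0 on day 14, 5 on day 28 and 2 on day 7, and the ERAD medians 0.0528 on day 14 and 0.173 on day 7. Leaving out the day 3 sham and iron day 1 replicate 1 arrays gave counts of 2 for all iron days, 0 on day 14, 6 on day 28 and 2 on day 7, with the same ERAD medians of 0.0528 and 0.173. With the day 3 sham array alone the counts were 0 for all iron days, 3 on day 1, and 0 on days 7, 14 and 28. The medians on days 1, 3, 7 and 14 were then -0.184, 0.0338, -0.0800 and -0.209 for ERAD. On days 1, 3, 7, 14 and 28 they were -0.381, -0.322, -0.215, -0.297 and 0.0449 for chaperones and -0.442, -0.319, -0.353, -0.309 and 0.00503 for sensors, and the day 3 median of the PERK-ATF4 arm was 0.152. Apart from members left untested by the stricter filter, the cause of these shifts was not tested.

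Leaving out 1 array in turn gave counts of 3 to 16 in the F test, 0 to 2 for all iron days, 0 to 0 on day 1, 2 to 5 on day 3, 0 to 5 on day 7, 0 to 1 on day 14, 0 to 5 on day 28, 0 to 1 for day 3 minus day 1 and 7 to 14 late minus early. The medians on days 1, 3, 7, 14 and 28 then ran from -0.303 to -0.0995, -0.234 to -0.00149, -0.0379 to 0.187, -0.226 to 0.0367 and 0.148 to 0.383 for chaperones. They ran from -0.268 to -0.0699, -0.171 to 0.0734, -0.198 to 0.0762, -0.190 to 0.0759 and 0.164 to 0.397 for sensors. For the PERK-ATF4 arm they ran from -0.132 to 0.0371, 0.277 to 0.501, 0.215 to 0.654, -0.402 to 0.203 and -0.0978 to 0.122. For ERAD they ran from -0.0440 to 0.00352, 0.0627 to 0.199, -0.0511 to 0.173, -0.107 to 0.0654 and 0.0998 to 0.206. Median centring moved the share of higher among all called genes to 46.1% on day 3 and 54.4% on day 7, against 34.7% and 42.0% as reported.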
